A study of Mus musculus with 6 samples.

Results

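The genes of antigen presentation were followed in damaged hepatocytes (dHeps) cultured with a solvent or with a 3- or 5-compound cocktail. They were chosen by name, as every gene of the count table whose symbol starts with H2-, the prefix of the mouse major histocompatibility complex (MHC), and the partners B2m, Tap1, Tap2, Tapbp, Cd74, Ciita, Nlrc5, Psmb8, Psmb9, Psmb10, Cd80, Cd86 and Cd40. After 3 pseudogene symbols ending in -ps were dropped, 55 of 52323 genes remained. They comprised 29 class I heavy chains, 12 class II chains, 8 class I helpers, 2 class II helpers (Cd74 and Ciita), 3 costimulatory molecules (Cd80, Cd86 and Cd40) and H2-Ke6, which the annotation names Hsd17b8 and which encodes a metabolic enzyme and no MHC chain. H2-Bl is named H2-T13 in the annotation, and H2-K2, H2-Q3, H2-Pa and H2-Pb are annotated as pseudogenes although their symbols lack the -ps ending.

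MHC class I molecules are carried by almost all nucleated cells. A heavy chain pairs with beta-2 microglobulin (B2m) and shows CD8 T cells peptides that the proteasome has cut and the transporter of Tap1 and Tap2 has moved into the endoplasmic reticulum. Class II molecules are pairs of alpha and beta chains that show CD4 T cells peptides from endosomes, and they are the mark of macrophages, dendritic cells and B cells. Cd80, Cd86 and Cd40 give or receive the costimulatory signals that accompany presentation. Hepatocytes carry class I at modest levels and little class II, and they secrete the soluble class Ib chain H2-Q10.

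The cells were hepatocytes labelled AAV-TBG-Cre:Rosa-LSL-tdTomato (C57BL/6 background), isolated from livers injured with carbon tetrachloride (CCl4). The TBG promoter drives Cre in hepatocytes, so tdTomato marks cells that were hepatocytes when the virus was given. The methods describe a collagenase perfusion and name no sort for these cultures. All groups were kept for 16 days in serum-free Hepatocyte Maintenance Medium. The DMSO group received solvent. In the 3C group, protein kinase D was inhibited with CID755673 (50 µM) and ATP citrate lyase with ETC-1002 (5 µM), and the kinase inhibitor GSK429286A (2 µM) was added. The 5C group had these compounds plus salidroside (5 µM) and the adenylate cyclase activator forskolin (2 µM). There were 2 libraries per group. The labels give no age and do not say whether the replicates came from separate animals or cultures. For the mice, the methods give a young adult age only at the start of labelling and injury, and a mix of both sexes. On replicates they say only that n stands for biological replicates throughout the study. For these libraries p-values therefore measure only the spread between them, which may be technical.

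Total estimated counts were 65916573 to 69245895 per library. Pearson's r of log2 CPM (counts scaled to a common library size) across genes, which are not independent replicates, was 0.975 to 0.977 within groups and 0.935 to 0.969 between groups. Of 10 hepatocyte markers, all were detected and all were called higher in both cocktails than in DMSO, with a summed level of 1550 to 1770 CPM in DMSO, 9468 to 9921 CPM in 3C and 9084 to 13456 CPM in 5C. Macrophage markers were also present in every library. Their summed level was 12464 to 13448 CPM in DMSO, 4332 to 4339 CPM in 3C and 2813 to 2908 CPM in 5C. Of 15 macrophage markers, 13 (86.7%) were called lower in each cocktail than in DMSO. Over all tested genes, 7.30% were called higher and 4.42% lower in 5C, and 5.83% and 3.62% in 3C. In bulk RNA, fewer cells of a type and less RNA per cell cannot be told apart, and this touches every result below.

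Calls required an absolute log2 fold change above 1 and, in edgeR's quasi-likelihood test, a p below 0.05 after Benjamini-Hochberg adjustment. Of the 55 members, 37 passed the filter on low counts and were tested. Of the other 18, 12 were at 0 in every library and the largest count of any was 20. A count of 0 allows up to 3 counts, or 0.0455 CPM in the smallest library, and covers counting error only. The untested genes were 12 class Ib chains (H2-M1, H2-M5, H2-M9, H2-M11, H2-M10.1 to H2-M10.6, H2-Q3 and H2-T3) and 6 class II chains (H2-Ea, H2-Eb2, H2-Oa, H2-Ob, H2-Pa and H2-Pb). Of the tested members, 33 had at least 10 counts in every library, and H2-Aa, H2-Bl, H2-Q5 and Ciita did not.

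In the comparison of 5C with DMSO, which asked how the full cocktail changed expression, the soluble class Ib chain H2-Q10 rose and the costimulatory genes Cd40, Cd80 and Cd86 and the class II chain H2-DMa fell. These were 5 of 37 members (13.5%), where 11.7% of all 19135 tested genes were called (7.30% higher and 4.42% lower). Without the limit on the fold change, 16 of 37 members (43.2%) had an adjusted p under 0.05, 5 higher and 11 lower, beside 28.7% of all genes (15.6% and 13.1%). The 2 groups did not overlap for 8 higher and 17 lower members, beside 63.1% of all genes (30.9% and 32.2%). In 3C against DMSO, H2-Q10 and the invariant chain Cd74 rose and Cd80 and Cd86 fell. These were 4 of 37 members (10.8%), beside 9.45% of all genes (5.83% higher and 3.62% lower), and 10 members passed the adjusted p alone, 5 in each direction (27.0%, beside 24.5%, of which 12.7% higher and 11.8% lower). The groups did not overlap for 12 higher and 15 lower members, beside 61.3% of all genes (33.6% and 27.7%). Between the cocktails, H2-Q10 alone was called, 1 of 37 members (2.70%) beside 3.01% of all genes (2.16% higher and 0.852% lower), and 3 passed the adjusted p alone, 1 higher and 2 lower (8.11%, beside 12.7%, of which 7.33% and 5.33%). The cocktails did not overlap for 6 higher and 18 lower members, beside 58.0% of all genes (23.2% and 34.8%). The first 2 comparisons share the DMSO libraries. The shares of called members were thus near those of all genes, and the calls fell on a few genes with distinct roles.

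**Figure D1:**
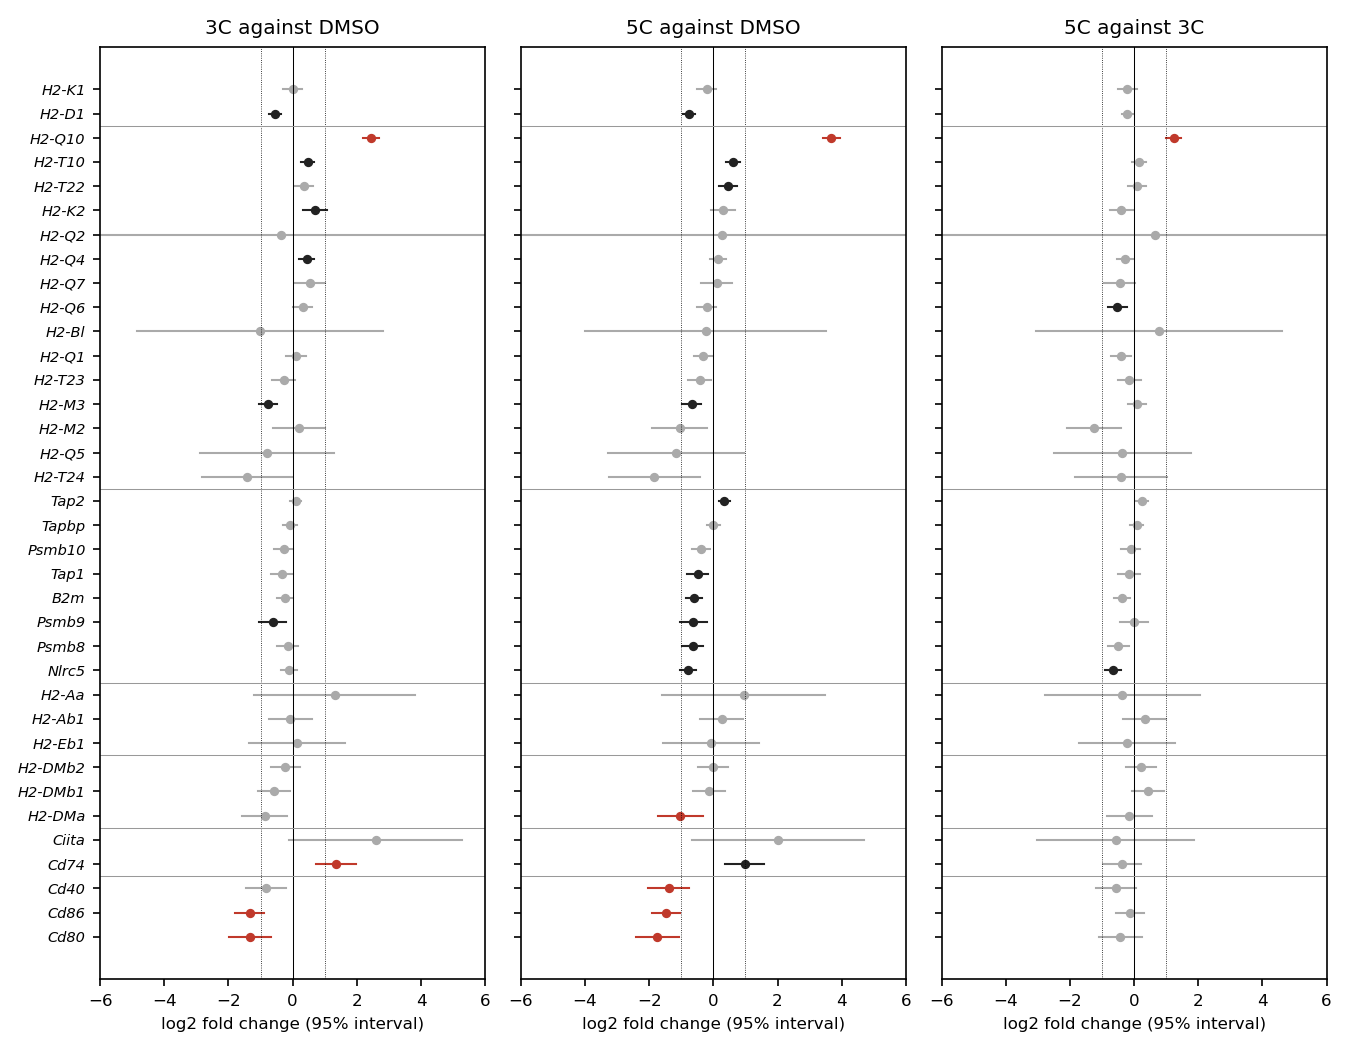
The log2 fold change of 36 tested members (H2-Ke6 is left out) in each comparison, grouped from top to bottom as class Ia chains, class Ib chains, class I helpers, classical class II chains, other class II chains, class II helpers and costimulatory genes. Horizontal lines are 95% intervals (those of H2-Q2 run past the axis), dotted lines mark a log2 fold change of 1, red marks called genes, black an adjusted p under 0.05 alone and grey the others, and H2-Q10 stands at 2.45, 3.68 and 1.23.

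H2-Q10 (chr17:35780959-35785460, plus strand, GRCm39) had the largest change of the called members. Its level was 12.4 and 9.59 CPM in DMSO, 60.8 and 61.6 CPM in 3C, and 134 and 144 CPM in 5C. The 3 groups were fully separated, in the order DMSO, 3C, 5C. It was 12.8-fold higher in 5C than in DMSO (95% interval 10.6 to 15.4), a log2 fold change of 3.68 with a standard error (SE) of 0.12 and an adjusted p of 2.16e-07. In 3C it was 5.45-fold higher than in DMSO (4.56 to 6.51, adjusted p 1.98e-06). The difference between 5C and 3C was itself called, at 2.35-fold (1.99 to 2.77, adjusted p 0.000273). These changes moved with the hepatocyte markers against DMSO. The summed ranges of those markers in 3C and 5C overlapped, but single markers differed. Between 5C and 3C, 2 of the 10 were called, both higher in 5C (Apoc3 at 2.36 and Cyp2e1 at 1.91). By sign, 7 were higher and 3 lower, with a median log2 fold change of 0.37. The part of hepatocyte content in the H2-Q10 result was not tested. Of 50-base words in its longest transcript, 22.3% also occur in other genes, 14.7% in H2-Q7, and H2-Q7 itself was at 4.50 to 7.77 CPM.

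By levels per length (FPKM, a fragment count scaled by gene length and depth), H2-Q10 made up 0.524% and 0.352% of the summed class I heavy chain level in DMSO, 3.15% and 3.02% in 3C, and 7.70% and 8.32% in 5C. Among 17 tested heavy chains its rank by FPKM was 7 and 11 in the DMSO libraries, 4 in both 3C libraries and 3 in both 5C libraries. The ratio of H2-Q10 to H2-K1 FPKM was 0.0373 and 0.0218 in DMSO, 0.173 and 0.154 in 3C, and 0.439 and 0.463 in 5C. The make-up of the class I transcripts therefore differed between all groups.

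The classical class I chains, H2-K1 and H2-D1, did not share that rise. H2-D1 (chr17:35481691-35486475, plus strand) had the highest heavy chain level per length (FPKM) in every library, and its level was 2439 and 2710 CPM in DMSO, 1757 and 1829 CPM in 3C, and 1507 and 1493 CPM in 5C. The groups were again fully separated, now in the opposite order. Its log2 fold change was -0.76 in 5C (SE 0.08, adjusted p 9.95e-05) and -0.55 in 3C (SE 0.08, adjusted p 0.000825), both under the limit for a call. Between 5C and 3C it was -0.21 (95% interval -0.38 to -0.03, adjusted p 0.135). The share of H2-D1 in the summed heavy chain FPKM was 78.6% and 76.1% in DMSO, 67.6% and 67.4% in 3C, and 64.3% and 63.7% in 5C. H2-K1 (chr17:34214987-34219321, minus strand) was at 300 and 405 CPM in DMSO, 355 and 366 CPM in 3C, and 307 and 296 CPM in 5C. Its DMSO replicates spanned both 3C libraries and overlapped 5C, and no comparison passed (5C against DMSO -0.21, 95% interval -0.51 to 0.09, 3C against DMSO, -0.30 to 0.30). H2-D1 and H2-K1 share 17.5% and 10.4% of their words with other genes, and their largest partner is the other of the pair (7.83% and 8.82%).

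**Figure D2:**
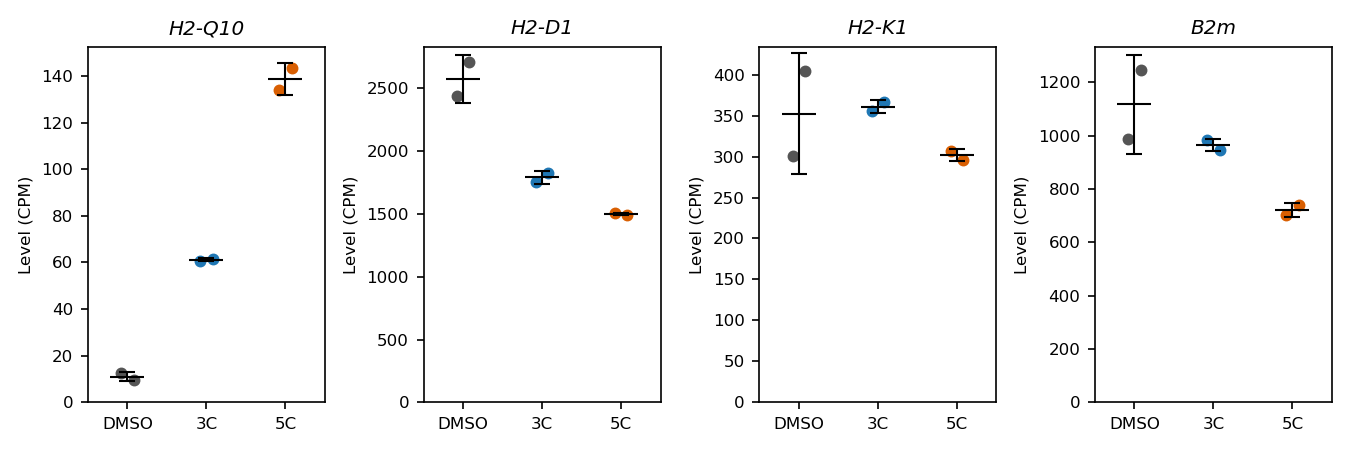
Level in CPM (linear axes from 0) of H2-Q10, H2-D1, H2-K1 and B2m in each library, with points for the 2 replicates of a group and bars for the mean and SD. H2-Q10 separates the 3 groups upward from DMSO to 5C, H2-D1 separates them downward, and the DMSO replicates of H2-K1 span 3C and overlap 5C.

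The 250 bases upstream of the annotated starts of H2-K1 and H2-Q10 are shown because the levels of these related chains moved differently while their promoters share the class I upstream block. Capitals mark, in order, the 10-base kappa B site of enhancer A, or the bases at its place, and the 11-base interferon element. Both are written 5′ to 3′ on the strand of the gene, from GRCm39 (chr17:34219322-34219571, minus strand, for H2-K1 and chr17:35780709-35780958, plus strand, for H2-Q10).
H2-K1: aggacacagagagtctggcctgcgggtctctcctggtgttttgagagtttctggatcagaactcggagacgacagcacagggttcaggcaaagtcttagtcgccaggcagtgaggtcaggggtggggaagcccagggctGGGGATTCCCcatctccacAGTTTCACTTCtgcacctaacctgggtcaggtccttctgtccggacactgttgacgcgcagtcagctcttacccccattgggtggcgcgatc
H2-Q10: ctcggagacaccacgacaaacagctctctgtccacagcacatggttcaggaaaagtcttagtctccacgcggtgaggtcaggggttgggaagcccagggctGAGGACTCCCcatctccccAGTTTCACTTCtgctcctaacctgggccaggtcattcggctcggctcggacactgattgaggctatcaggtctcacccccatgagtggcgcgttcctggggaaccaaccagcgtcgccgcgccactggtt

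In a gapped alignment, 177 of the 250 bases (70.8%) were paired with an identical base. Both windows hold the interferon element AGTTTCACTTC, 9 bases after the kappa B place. In that place H2-K1 has GGGGATTCCC and H2-Q10 has GAGGACTCCC, with the substitutions G2A and T6C counted from 1 at the first base of the block, H2-K1 first. These elements were read from the H2-K1 promoter. Both strands of the 250 bases before the starts of 21770 protein-coding genes were searched. The interferon element was found in 10 of them (0.0459%) and the kappa B site in 23 (0.106%). These matches include class I genes listed next, which are related to H2-K1, so the shares are not an independent background. Among 25 tested class I chains and helpers, the interferon element was found at H2-K1, H2-K2, H2-Q4, H2-Q5, H2-Q6, H2-Q7 and H2-Q10, and the kappa B site at H2-K1, H2-K2, H2-Q5, H2-Q6 and H2-Q7. The inverted CCAAT box ATTGG, present in 36.5% of promoters, was found at 14 of 25 class I and 6 of 8 class II genes. H2-D1 and B2m had no match to any of these motifs. Only exact letters within the 250 bases counted, so a variant or an element elsewhere would be missed. No matches overlapped each other. Of the genes with the interferon element, H2-Q10 alone had an adjusted p under 0.05 in 5C against DMSO. The others had log2 fold changes of -0.21 (H2-K1), 0.31 (H2-K2), 0.15 (H2-Q4), -1.17 (H2-Q5), -0.21 (H2-Q6) and 0.10 (H2-Q7). Whether these elements bear on the levels was not tested.

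The other class Ib chains, a group of less variable molecules of which several have specialised ligands, moved in both directions, and edgeR's test called none of them. H2-T10 and H2-T22, close relatives that gamma-delta T cells can recognise, were higher. H2-T10 was at 25.7 and 27.9 CPM in DMSO, 39.3 and 36.4 CPM in 3C, and 40.5 and 40.6 CPM in 5C, with log2 fold changes of 0.47 in 3C (adjusted p 0.00586) and 0.62 in 5C (adjusted p 0.00104). H2-T22 rose by 0.45 in 5C (adjusted p 0.0258) and had 0.34 in 3C (adjusted p 0.0811). They share words with each other (30.3% of H2-T10 and 29.2% of H2-T22), so their reads are uncertain one by one, and their summed level was 36.5 and 39.6 CPM in DMSO, 54.6 and 50.4 CPM in 3C, and 55.8 and 55.7 CPM in 5C. H2-M3, which presents formylated bacterial peptides, was lower in both cocktails. It was at 19.2 and 22.5 CPM in DMSO, 12.6 and 12.5 CPM in 3C, and 12.6 and 13.2 CPM in 5C, with log2 fold changes of -0.76 in 3C (adjusted p 0.00225) and -0.68 in 5C (adjusted p 0.00374).

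Several Q-region chains were highest in 3C. H2-Q4 was at 68.3 and 84.0 CPM in DMSO, 108 and 103 CPM in 3C, and 88.9 and 78.3 CPM in 5C, and it rose by 0.44 in 3C (adjusted p 0.0154), or 0.29 without DMSO replicate 1 (adjusted p 0.0568). H2-Q6 fell by 0.52 from 3C to 5C (adjusted p 0.0291), with 14.5 CPM in each 3C library against 9.57 and 9.91 CPM in 5C. H2-K2, the annotated pseudogene, rose by 0.70 in 3C (adjusted p 0.0125), and 92.3% of its words occur in a second annotated copy of the same name. H2-Q6 and H2-Q7 share 33.1% and 29.7% of their words with other genes, and their sum of 21.5 and 22.3 CPM in 3C lay above the 15.6 and 17.2 CPM of DMSO and the 14.2 and 15.7 CPM of 5C. H2-Q1, H2-Q5, H2-Q7, H2-T23, H2-T24, H2-M2 and H2-Bl did not pass in any comparison in edgeR's test, while DESeq2 called H2-T24 lower in 5C than in DMSO (adjusted p 0.028) and H2-M2 lower in 5C than in 3C (adjusted p 0.0288). The log2 fold changes of these genes in 5C against DMSO ran from -1.84 for H2-T24 (adjusted p 0.0588) to 0.10 for H2-Q7. H2-T23, which carries the Qa-1 antigen that NK cell receptors read, was at 11.3 and 11.4 CPM in DMSO and at 7.67 and 9.04 CPM in 5C (-0.42, adjusted p 0.0825). H2-M2 had a log2 fold change of -1.25 between 5C and 3C with an adjusted p of 0.0624.

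H2-Q2 could not be compared. Its counts were 13 and 530 in the DMSO replicates, 406 and 30 in 3C, and 619 and 66 in 5C, so that replicates of 1 group differed by 9.40 to 41.5 times and all groups overlapped. H2-Bl, at 66 to 95 counts in 5 libraries, was at 0 in 3C replicate 2. H2-Q5 had 9 and 78 counts in the DMSO replicates. H2-Q2 shares 10.7% of its words with H2-Q1, whose level was 26.8 to 39.8 CPM over the libraries.

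**Figure D3:**
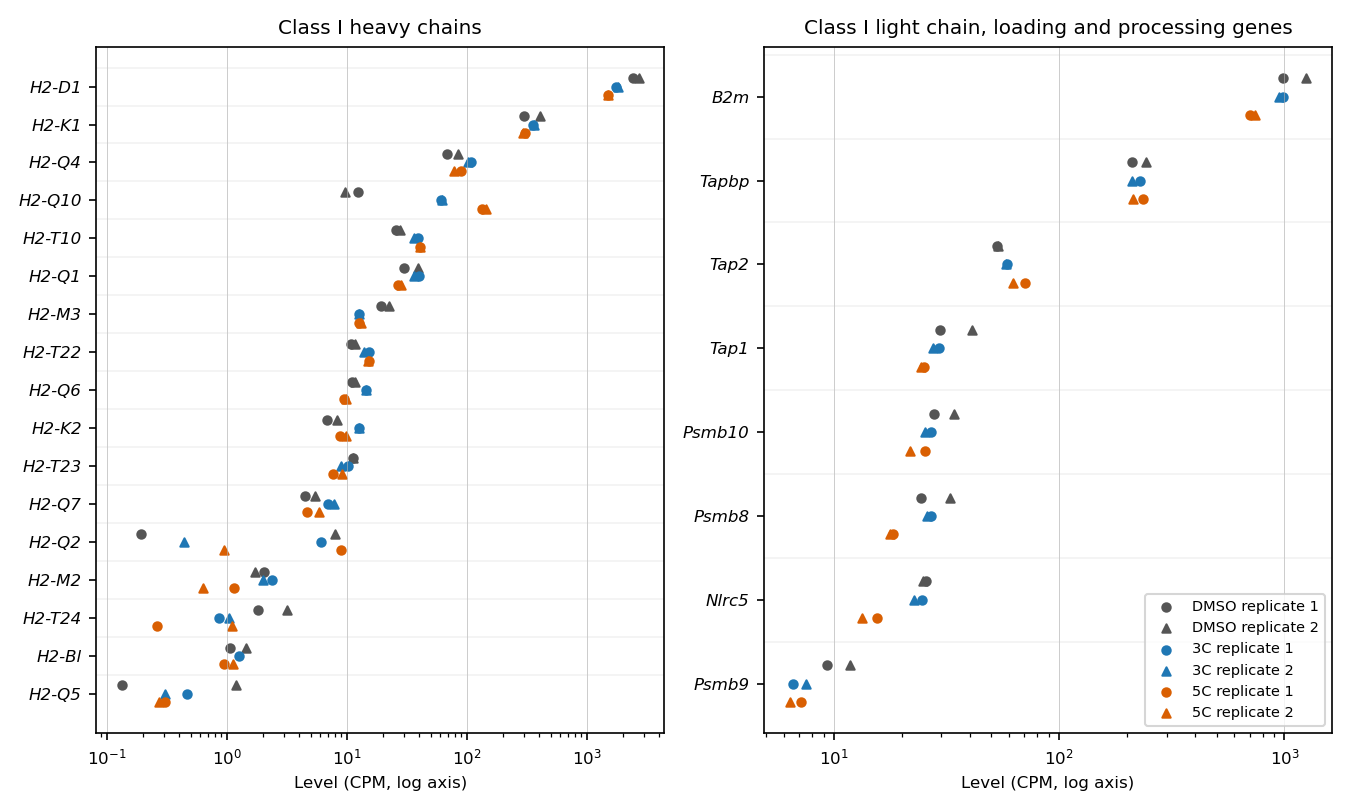
Level in CPM (log axis) of the 17 tested class I heavy chains (left) and the 8 class I helpers (right), ordered by mean level, with circles for replicate 1 and triangles for replicate 2 of DMSO (grey), 3C (blue) and 5C (orange). H2-Bl in 3C replicate 2 is at 0 and not drawn, H2-Q2 splits within each group, and H2-Q10 moves from left to right across the groups.

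Among the class I helpers, the light chain, Nlrc5 and genes that cut and transport ligands were lower in 5C, by less than the limit for a call. Of 8 class I helpers, none was called, 5 had an adjusted p under 0.05 and were lower (B2m, Nlrc5, Psmb8, Psmb9 and Tap1), and Tap2 was higher. Both directions together made 75.0% of the helpers, beside 28.7% of all tested genes (15.6% higher and 13.1% lower). At an unadjusted p under 0.05 there were 7, with Psmb10 (lower) added, and DESeq2 also called none. The share of all genes at an unadjusted p was not computed. Counts at that limit, here and below, therefore have no background beside them. B2m (chr2:121977957-121983594, plus strand), the common light chain, was at 987 and 1248 CPM in DMSO, 982 and 948 CPM in 3C, and 703 and 740 CPM in 5C. Both 5C libraries lay below all others, with a log2 fold change of -0.61 (SE 0.11, adjusted p 0.00304), against -0.24 in 3C (95% interval -0.50 to 0.01, adjusted p 0.156). The difference between 5C and 3C was -0.37 (adjusted p 0.0649). The ratio of B2m to summed heavy chain FPKM was 0.765 and 0.839 in DMSO, 0.911 and 0.842 in 3C, and 0.718 and 0.761 in 5C, with both 5C libraries just below DMSO.

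Nlrc5 (chr8:95160984-95253900, plus strand), the transactivator of class I genes, was lower in 5C alone. It was at 25.6 and 24.8 CPM in DMSO, 24.7 and 22.7 CPM in 3C, and 15.6 and 13.3 CPM in 5C. The log2 fold change was -0.78 against DMSO (adjusted p 0.000747) and -0.66 against 3C (adjusted p 0.0055), while 3C against DMSO gave -0.12 (95% interval -0.37 to 0.13). The immunoproteasome subunits Psmb8, Psmb9 and Psmb10, which replace the standard catalytic subunits, had -0.65 (adjusted p 0.00898), -0.62 (adjusted p 0.0335) and -0.38 (adjusted p 0.0542) in 5C against DMSO. Psmb9 was also lower in 3C (-0.62, adjusted p 0.0386, under 0.05 in 9 of 16 other fits), whereas Psmb8 was at 24.4 to 32.9 CPM in DMSO and at 25.9 to 27.0 CPM in 3C and did not pass.

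Of the transporter subunits, Tap1 fell by 0.49 in 5C against DMSO (adjusted p 0.0369) and Tap2 rose by 0.34 (adjusted p 0.01). Tap1 was at 29.5 and 41.0 CPM in DMSO and at 25.1 and 24.4 CPM in 5C, and Tap2 at 53.2 and 53.6 CPM against 70.7 and 62.5 CPM. Exons of Tap1 and Psmb9 overlap on opposite strands, and whether the counting used strand is not given in the sources used here. Tapbp, the loading chaperone tapasin, was at 209 to 243 CPM in all libraries, with 95% intervals within -0.29 to 0.29 in the 3 comparisons. B2m, Nlrc5, H2-D1 and H2-M3 kept an adjusted p under 0.05 in 5C against DMSO in all 16 other fits tested against no change, while Tap1 did so in 8 and Psmb9 in 11. Without DMSO replicate 2, Tap1 was at -0.22 (adjusted p 0.182) and Psmb8 at -0.40 (adjusted p 0.0317), and without DMSO replicate 1 Tap1 was at -0.72.

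The level of class I genes in DMSO depended on the library. In DMSO replicate 2, 20 of the 23 class I genes with at least 10 counts in every library were higher than in replicate 1, with a median log2 difference of 0.27, beside 46.8% and -0.02 over all such genes. The median log2 fold change of the 25 class I chains and helpers in 5C against DMSO was -0.31, beside 0.00 over all tested genes. It was -0.50 without DMSO replicate 1 and -0.10 without DMSO replicate 2. In 3C against DMSO the class I median was -0.12, and 0.10 without DMSO replicate 2. Its value for 5C against 3C was -0.21. B2m, at -0.61 with all libraries, was at -0.42 without DMSO replicate 2, and the 2 5C libraries still lay below DMSO replicate 1.

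Class II transcripts were scarce. Summed over the 12 class II chains the level was 20.2 and 24.8 CPM in DMSO, 13.9 and 18.7 CPM in 3C, and 18.6 and 16.3 CPM in 5C, and the chains of the peptide editor H2-DM made up most of it. The classical chains, which carry the peptide, summed to 3.14 and 2.81 CPM in DMSO, 2.40 and 3.81 CPM in 3C, and 3.75 and 3.08 CPM in 5C, and the groups overlapped. H2-Ab1 (chr17:34476663-34488393, plus strand) accounted for most of this, at 2.41 and 2.35 CPM in DMSO, 1.87 and 2.76 CPM in 3C, and 3.11 and 2.51 CPM in 5C. Its log2 fold change was 0.26 in 5C (95% interval -0.41 to 0.92) and -0.07 in 3C (-0.74 to 0.60). H2-Eb1 was at 0.317 to 0.777 CPM and H2-Aa at 4 to 14 counts, and neither passed. H2-Ea was at 0 in every library.

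**Figure D4:**
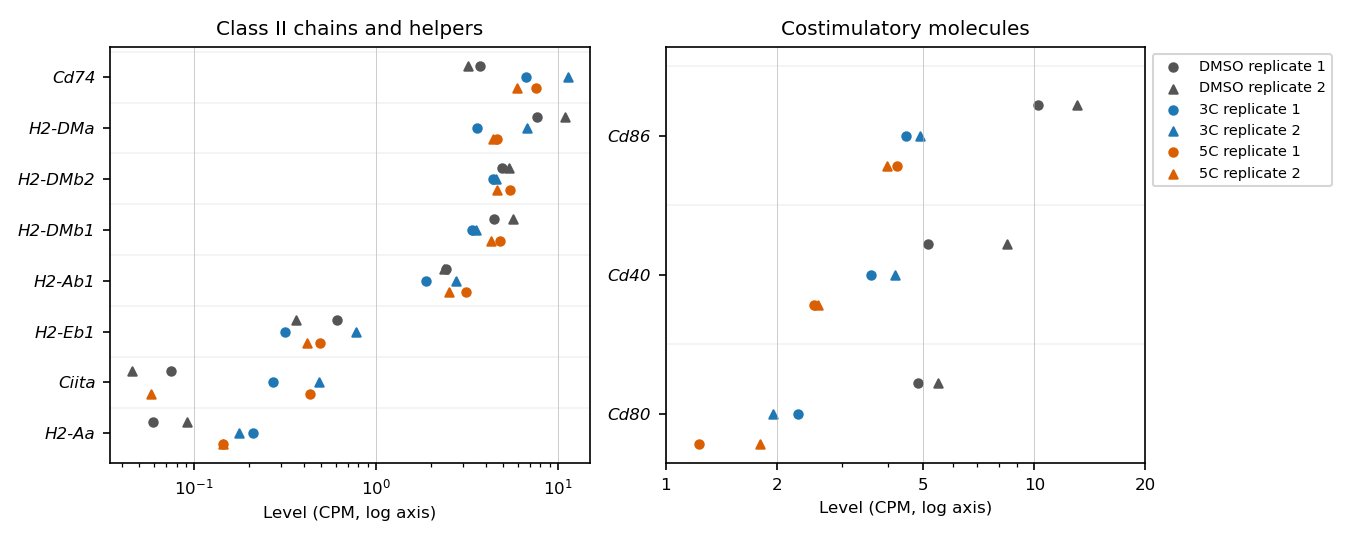
Level in CPM (log axes) of the 8 tested class II chains and helpers (left) and the 3 costimulatory genes (right), with circles for replicate 1 and triangles for replicate 2 of DMSO (grey), 3C (blue) and 5C (orange). Cd74 lies higher and Cd86, Cd40 and Cd80 lie lower in both cocktails than in DMSO, while H2-Ab1 and H2-Eb1 overlap between DMSO and 3C.

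Cd74, the invariant chain that guides class II molecules to endosomes, was the class II gene that rose. It was at 3.72 and 3.22 CPM in DMSO, 6.69 and 11.3 CPM in 3C, and 7.57 and 5.94 CPM in 5C, so that both cocktails lay above DMSO and overlapped each other. The log2 fold change was 1.35 in 3C (SE 0.27, adjusted p 0.0059), and it was 0.98 in 5C (SE 0.27, adjusted p 0.0241), just inside the limit of 1. Without 3C replicate 2, the 3C value was 0.91 (adjusted p 0.0564). Ciita, the master regulator of class II genes, had 5 and 3 counts in DMSO, 18 and 33 in 3C, and 30 and 4 in 5C. The 5C replicates of Ciita thus differed widely and overlapped both other groups, and no comparison passed (3C against DMSO, adjusted p 0.162).

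H2-DMa fell while its partner chains did not pass. It was at 7.62 and 10.9 CPM in DMSO, 3.58 and 6.76 CPM in 3C, and 4.63 and 4.38 CPM in 5C. The log2 fold change in 5C was -1.03 (SE 0.31, adjusted p 0.0358), and the call was lost in 7 of 17 alternatives, among them without DMSO replicate 2 (-0.73) and without either 5C replicate. In 3C it was -0.88 (adjusted p 0.072). H2-DMb1 and H2-DMb2, which have 27.2% and 21.99% of their words in common with each other, summed to 9.37 and 11 CPM in DMSO, 7.79 and 8.12 CPM in 3C, and 10.3 and 8.88 CPM in 5C. Exons of H2-DMa overlap those of Brd2 on the opposite strand, and those of Ciita overlap Dexi. H2-Ke6 had log2 fold changes of 0.76 in 5C and 0.59 in 3C that did not pass, and 96.3% of its words occur in the readthrough gene Gm20427.

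The class II genes as a group showed no common direction. The median log2 fold change of the 8 tested chains and helpers was 0.12 in 5C against DMSO, 0.03 in 3C against DMSO and -0.18 in 5C against 3C. In each comparison the sign of that median changed when single libraries were left out, with a range of -0.32 (without 3C replicate 2) to 0.41 (without 3C replicate 1) for 3C against DMSO. Class I against class II, the former had 7 of 25 genes lower and 4 higher at an adjusted p under 0.05 in 5C against DMSO (44.0% in all). The latter had 1 of 8 lower and 1 higher (25.0% in all). Over all tested genes the share was 28.7% (15.6% higher and 13.1% lower). The difference between the classes was not tested. By summed FPKM the class I heavy chains exceeded the class II chains 85.7 and 78.5 times in DMSO, 114 and 81.1 times in 3C, and 77.5 and 87.0 times in 5C, and the groups overlapped.

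The costimulatory genes fell together. Cd86 (chr16:36424044-36486443, minus strand), a ligand of CD28 and CTLA-4, was at 10.2 and 13.0 CPM in DMSO, 4.48 and 4.90 CPM in 3C, and 4.24 and 3.99 CPM in 5C. Its log2 fold change was -1.48 in 5C (SE 0.19, adjusted p 0.000429) and -1.34 in 3C (SE 0.19, adjusted p 0.00093). Cd80 (chr16:38275923-38316697, plus strand), the other ligand of these receptors, was at 4.82 and 5.49 CPM in DMSO, 2.28 and 1.95 CPM in 3C, and 1.23 and 1.81 CPM in 5C, with log2 fold changes of -1.74 in 5C (adjusted p 0.00187) and -1.32 in 3C (adjusted p 0.00885). For both genes every DMSO library lay above every cocktail library. Without 3C replicate 2, Cd80 in 3C had an adjusted p of 0.0747.

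Cd40 (chr2:164897544-164914868, plus strand), the receptor for CD40 ligand on T cells, was at 5.15 and 8.45 CPM in DMSO, 3.61 and 4.18 CPM in 3C, and 2.52 and 2.58 CPM in 5C. It fell by 1.40 in 5C (SE 0.28, adjusted p 0.00492) and had -0.84 in 3C (adjusted p 0.054). Without DMSO replicate 2 the 5C value was -0.98, just inside the limit. Between 5C and 3C none of the 3 genes passed, with 95% intervals of -1.18 to 0.07 for Cd40, -1.08 to 0.23 for Cd80 and -0.58 to 0.30 for Cd86. The summed level of the 3 genes was 20.2 and 27.0 CPM in DMSO, 10.4 and 11 CPM in 3C, and 7.99 and 8.38 CPM in 5C. This order was also that of the macrophage markers given above, and the part of macrophage content in these changes was not tested. Of 10 dendritic cell markers, 5 were tested and Cd209a and Siglech were at 0, and Fscn1 was called higher in 5C and Itgax and Clec9a lower in 3C. Of 8 B cell markers 2 were tested, Cd79b was at 0, and Bank1 was called lower in both cocktails (-1.20 in 5C, -1.16 in 3C). Their summed level was 169 to 198, 216 to 230 and 458 to 502 CPM for dendritic cells and 2.65 to 4.16, 1.36 to 1.46 and 1.46 to 1.86 CPM for B cells in DMSO, 3C and 5C. Fscn1 alone made up most of the dendritic sum (means 168, 210 and 466 CPM), and 4 of the 5 tested markers had negative log2 fold changes in 5C against DMSO. Of 10 T and NK cell markers, 3 were tested and none was called by edgeR or DESeq2 (0 at an unadjusted p under 0.05 in each comparison), Cd3e, Cd3g and Ncr1 were at 0, and the sum was 0.730 to 1.52 CPM over all libraries.

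Many endosomal genes that prepare class II ligands were also lower. Of 15 genes for endosomal proteases and class II turnover, 6 (40.0%) were called lower and none higher in 5C, beside 4.42% of all tested genes called lower. An adjusted p under 0.05 was reached by 12 (80.0%), all lower, beside 13.1% of all genes lower at that limit. The median log2 fold change was -0.78. Ctss, the protease that trims the invariant chain, was at 1571 ± 95.3 CPM (SD, n = 2) in DMSO, 490 ± 21.0 CPM in 3C and 299 ± 1.54 CPM in 5C, and its log2 fold changes were -1.71 and -2.37. Marchf1, the ligase that removes class II and Cd86 from the surface, had -1.68 in 3C and -1.93 in 5C. Ctsb and Ctsd, lysosomal cathepsins, had -1.37 and -1.38 in 3C and -1.69 and -1.58 in 5C. In 3C, 5 were called lower (33.3%, beside 3.62% of all genes), these and Ifi30 (-1.25), a thiol reductase, named after its value was seen. Between 5C and 3C edgeR and DESeq2 called none, and 7 had an unadjusted p under 0.05.

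Regulators of MHC transcription were called about as often as all tested genes. Of 19, Spi1 and Irf8 were called lower in each cocktail (10.5%) and none was called higher. All tested genes had 11.7% called for 5C (4.42% lower) and 9.45% for 3C (3.62% lower). Spi1 and Irf8 are transcription factors of myeloid cells, and 9 and 6 regulators had an unadjusted p under 0.05 in 5C and 3C against DMSO. Spi1 was at 95.2 ± 4.82 CPM in DMSO, 41.5 ± 4.20 CPM in 3C and 27.2 ± 2.99 CPM in 5C, and Irf8 at 61.9 ± 8.88, 24.8 ± 0.522 and 18.9 ± 1.63 CPM. Ifngr1, a subunit of the interferon-gamma receptor named after its values were seen, had -0.66 in 5C against DMSO (adjusted p 0.000229), 0.24 in 3C (adjusted p 0.0487) and -0.90 between 5C and 3C (adjusted p 0.000273). Of 15 interferon-gamma response genes, 1 was called higher and 2 lower in each cocktail against DMSO. Iigp1, a GTPase, rose by 1.31 in 5C and 1.13 in 3C. The chemokine Cxcl10 had -1.11 in 5C and -1.65 in 3C, Gbp7 had -1.17 in 5C and Gbp5 -1.51 in 3C. The list summed to 230 to 319 CPM in DMSO, 207 to 237 CPM in 3C and 227 to 237 CPM in 5C, and all 11 of its genes with at least 10 counts in every library were higher in DMSO replicate 2 than in replicate 1.

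Of 17 other genes of class I loading and peptide trimming, none was called in edgeR's test, and 3, 7 and 4 had an adjusted p under 0.05 when 5C was compared with DMSO, 3C with DMSO and 5C with 3C. These were 17.6%, 41.2% and 23.5% of the list, beside 28.7%, 24.5% and 12.7% of all tested genes. Calr, the chaperone calreticulin of the loading complex, named after its values were seen, rose by 0.34 in 5C and had -0.43 in 3C. At an unadjusted p under 0.05 there were 5, 9 and 6, and DESeq2 called none. Of 10 other MHC-like molecules, Azgp1 rose in both cocktails, by 2.12 in 5C and 2.49 in 3C. Cd1d1, which presents lipids to NKT cells, rose by 1.01 in 5C, Hfe, a regulator of iron uptake, had -1.22 in 5C, and Fcgrt, the neonatal Fc receptor, had -1.04 in 3C. Of 15 other costimulatory and coinhibitory ligands, 12 were tested. Vtcn1 (B7-H4), a coinhibitory ligand, was at 2.37 ± 0.117 CPM in DMSO, 8.21 ± 0.992 CPM in 3C and 14.0 ± 0.445 CPM in 5C (1.76 and 2.58 on the log2 scale). Cd48 had -1.15 in 3C and -1.93 in 5C, and Cd83 -1.72 and -1.18. Between 5C and 3C no gene of the MHC-like or costimulatory lists was called by edgeR or DESeq2, and 4 and 6 had an unadjusted p under 0.05.

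Markers of the other liver cells also differed between the groups. Of 9 tested endothelial markers, 6 were called higher and 1 (Lyve1) lower in 5C, 4 higher and 1 lower in 3C. Their sum was 428 to 452 CPM in DMSO, 186 to 223 CPM in 3C and 260 to 373 CPM in 5C, in which Lyve1 had means of 314, 72.1 and 57.6 CPM, so the sum moved against most of the list. Of 8 cholangiocyte markers, 4 were called higher in 5C and 6 in 3C, with sums of 2928 to 3419, 3594 to 3781 and 2424 to 2729 CPM. Of 10 stellate cell and fibroblast markers, 4 were called higher in 5C, and 1 higher and 2 lower in 3C, with sums of 5690 to 6587, 4907 to 4933 and 7443 to 8000 CPM. The called shares in 5C and 3C were 77.8% and 55.6% for endothelial, 50.0% and 75.0% for cholangiocyte, and 40.0% and 30.0% for stellate cell and fibroblast markers. Over all tested genes they were 11.7% and 9.45%. The part of these cells in the class I and class II values was not tested.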

How the data were processed

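Bulk RNA was sequenced in 6 libraries (2 each of DMSO, 3C and 5C). The authors deposited estimated counts per gene, as whole numbers, with FPKM values beside them. Reads were mapped to GRCm39 per the study's methods, the submitters' processing notes list featureCounts, Subread and DESeq2 without roles, and the aligner, annotation release and strand setting are not given in the sources used here. What 1 count stands for is also not given, so counts divided by 4 were tried as an alternative chosen after seeing the data. Columns of the authors' own comparisons were not used.

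Counts were tested with edgeR 4.0.16 (R 4.3.3) on the rows as deposited: filterByExpr, TMM, a robust quasi-likelihood fit of all 6 libraries by group without a block, and Benjamini-Hochberg adjustment over 19135 genes. Standard errors are those implied by the F statistic. Alternatives used DESeq2 1.42.0, limma 3.58.1 on log2(FPKM + 1) and log2(FPKM + 0.1), other scalings and filters, and leaving out each library. On simulated counts for 5C against DMSO (19135 genes, 200 changed by a log2 fold change of 2), 186 and 185 changed genes were recovered in 2 draws, with 5 and 8 false calls. The changed genes were drawn from those with a mean of at least 1 CPM. Changes in lower genes, and smaller changes, were not simulated. Totals of 65916573 to 69245895 counts limit the precision of low genes. Words of 50 bases shared between genes, coordinates and promoters came from GENCODE vM39 on GRCm39. Every member is named, with values if tested. From 14 other lists (6 of presentation, 8 of cell types) up to 4 called genes per list were named. Members and lists were chosen with earlier results of these data known.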

Additional observations from a re-analysis of the deposited data

How the results depend on the processing

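For the 29 member comparisons with an adjusted p under 0.05, 471 values under 17 alternative fits kept their side of the threshold for a call. Another 21 lost a call, 1 gained a call and none changed sign. Comparisons that were not called count as kept when they stay uncalled, so the 471 does not measure how stable the calls were. Tap1 in 5C against DMSO kept its side in all 17, with an adjusted p under 0.05 in 8 of 16. All 21 losses were among called comparisons, 7 of them for H2-DMa in 5C against DMSO. Over all comparisons of the 37 tested members, 10 gained a call in at least 1 fit and 54 of 1858 values changed sign. Members called in 5C against DMSO (5 as reported) numbered 1 with glmTreat at a limit of 1, 2 with limma on log2(FPKM + 1), 16 with no fold limit and 3 (without DMSO replicate 2) to 7 with 1 library left out. In 3C against DMSO (4) they numbered 1, 2, 10 and 3 to 5 in the same order. In 5C against 3C (1) they numbered 0 with glmTreat, 2 with at least 10 counts in every library, DESeq2, counts divided by 4 or an unadjusted p, 3 with no fold limit, and 1 to 2 with 1 library left out. The class I median moved over -0.50 to -0.10, -0.21 to 0.10 and -0.23 to -0.11 with 1 library left out, in the order of comparisons just given. The class II median moved over -0.072 to 0.29, -0.32 to 0.41 and -0.38 to 0.32. It was -0.044, -0.15 and 0.032 with at least 10 counts in every library, -0.074, -0.15 and 0.033 with counts divided by 4, and -0.046 in 5C against DMSO with 4 libraries. The cause was not tested. Replicate numbers gave no sign of pairing (correlations of their deviations were -0.03, 0.00 and 0.02). With 2 libraries per group this cannot show whether libraries shared an animal or a culture. With the replicate block, 2125, 1737 and 536 genes were called over all genes against 2242, 1809 and 576, members called numbered 5, 4 and 1, and H2-DMa lost its call. Members at a few counts (Ciita, H2-Aa) are limited by depth.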

Other observations

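The class II genes differed between replicates in another way than the class I genes. Among genes with at least 10 counts in every library, all 6 class II genes were higher in replicate 2 than in replicate 1 of 3C (median log2 difference 0.66) and none of 6 in 5C (-0.24), while 3 of 6 were in DMSO. Over all 15953 such genes the shares were 49.6%, 46.2% and 46.8%. For the class I genes 7 of 23 were higher in replicate 2 of 3C and 10 of 23 in 5C.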
